A study of Mus musculus with 17 samples.

Results

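The 4 gene-named piRNA loci of mouse testis, pi-Cdc42ep3, pi-Wdfy3, pi-Ccdc117 and pi-Kctd7, were measured in 9 sequencing libraries. They were chosen by their fall in small RNA from wild-type to Mael-/- testis, the deepest among 114 gene-named loci, and are 4 of 214 piRNA loci and of 38207 features counted in all. Because that contrast selected them, their small RNA values are given as a description, with no test. The series compared wild-type with Mael-/- testis of the 129SvJae strain, 17 libraries in all, of which 9 list piRNA loci. These are 2 wild-type and 2 Mael-/- libraries of small RNA of 15 to 50 nt, and 5 immunoprecipitates from wild-type testis, with no Mael-/- counterpart. Of these, 4 used anti-MAEL (2 of long RNA and 1 each of RNA sized 50 to 150 nt and 15 to 50 nt), and 1 of long RNA used rabbit IgG, the background antibody. Neither age nor the number of animals behind each group is in the labels. The p-values therefore cover the spread between samples alone, and that spread may be technical.

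As background, piRNAs are small RNAs of germ cells that guide PIWI proteins to transposon and other transcripts. They are cut from long single-stranded precursors, and Maelstrom, encoded by Mael, is a germ cell protein of the piRNA pathway needed for transposon silencing. Loci with a pi- prefix and a gene symbol lie at protein-coding genes, whose transcripts then serve as precursors, while loci named by a chromosome band are mostly intergenic. Of the host genes, Cdc42ep3 encodes an effector of the small GTPase CDC42, Wdfy3 a large scaffold protein of selective autophagy, Ccdc117 a coiled-coil protein, and Kctd7 a BTB-domain protein that works with cullin-3 ubiquitin ligases. In the RefSeq gene table all 4 are protein-coding. The Cdc42ep3 gene overlaps the long noncoding gene Gm17315 and Wdfy3 overlaps Gm20548 and Gm42135, whereas 0 annotated genes overlap Ccdc117 or Kctd7. The sources used here do not state how the counting treated strand. Where a locus covers such overlapping genes, the counts used here do not show which gene the reads came from.

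Promoter sequence is shown for the 2 of 4 host genes that the RefSeq promoter table holds. Each runs from 250 bases before to 50 after the annotated gene start, in build GRCm38.p6, while the study's notes name mm9. Capitals mark matches to AACNG, the core motif of MYB proteins, searched on both strands, because the MYB protein A-MYB is known to drive many piRNA loci in meiotic cells. The Cdc42ep3 promoter lies at chr17:79355042-79355341 on the minus strand and the Kctd7 promoter at chr5:130144633-130144932 on the plus strand.
Cdc42ep3: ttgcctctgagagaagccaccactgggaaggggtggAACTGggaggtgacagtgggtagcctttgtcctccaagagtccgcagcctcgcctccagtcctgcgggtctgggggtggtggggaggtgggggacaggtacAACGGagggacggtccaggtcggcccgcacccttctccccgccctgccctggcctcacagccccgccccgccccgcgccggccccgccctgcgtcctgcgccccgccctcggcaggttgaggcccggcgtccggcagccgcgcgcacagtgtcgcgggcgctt
Kctd7: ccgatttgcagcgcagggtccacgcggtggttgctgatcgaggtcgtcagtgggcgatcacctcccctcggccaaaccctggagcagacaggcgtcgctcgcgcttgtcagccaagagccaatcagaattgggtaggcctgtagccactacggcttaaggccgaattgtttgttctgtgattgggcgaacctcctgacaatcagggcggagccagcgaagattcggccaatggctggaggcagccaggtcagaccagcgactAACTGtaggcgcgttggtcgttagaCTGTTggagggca
Each holds 2 matches, both on the gene's strand in Cdc42ep3 and 1 on each strand in Kctd7. The motif is short and common: of 32851 RefSeq promoters of this length 80.3% hold it, and of the 100 promoters listed for gene-named loci 75 do. Whether the piRNA precursors start at these promoters was not tested.

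Small RNA at these loci ranged from a near-complete loss to a loss of the larger part. The level is given as CPM, the count scaled to the same total in every library. At pi-Cdc42ep3 it was 75.3 and 88.2 CPM in the wild-type libraries a and b and 3.47 and 5.38 CPM in the Mael-/- libraries. The last value rests on 26 counts, with an exact 95% binomial interval of 3.52 to 7.88 CPM, which covers counting error only. The locus kept 5.42% of its wild-type level, an 18.5-fold difference between the means of 81.7 ± 9.14 and 4.43 ± 1.35 CPM (SD, n = 2). At pi-Wdfy3 the wild-type libraries held 138 and 151 CPM and the Mael-/- libraries 13.8 and 12.8 CPM, so 9.23% was left. These 2 loci stood apart from the other members, with both Mael-/- libraries far below both wild-type ones.

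The other members lost less. At pi-Ccdc117 the level was 63.3 and 68.0 CPM in wild type and 22.5 and 24.4 CPM in Mael-/-, which left 35.7%. At pi-Kctd7, the member with the most small RNA, it was 377 and 387 CPM in wild type and 149 and 158 CPM in Mael-/-, which left 40.1%. A collapse therefore describes pi-Cdc42ep3 and pi-Wdfy3, whose small RNA fell by 18.5-fold and 10.8-fold in CPM, better than pi-Ccdc117 and pi-Kctd7, at 2.80-fold and 2.49-fold. At all 4 loci both Mael-/- libraries lay below both wild-type ones in CPM. The same held at 25 of the 114 loci with a gene name and at 73 of the 100 with a band name. Over all 9906 features tested in small RNA, 6.11% had both Mael-/- libraries below both wild-type ones, and nothing is read from the members' count, since the contrast chose them. In bulk tissue, fewer cells of a type and less RNA per cell cannot be told apart.

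**Figure D1:**
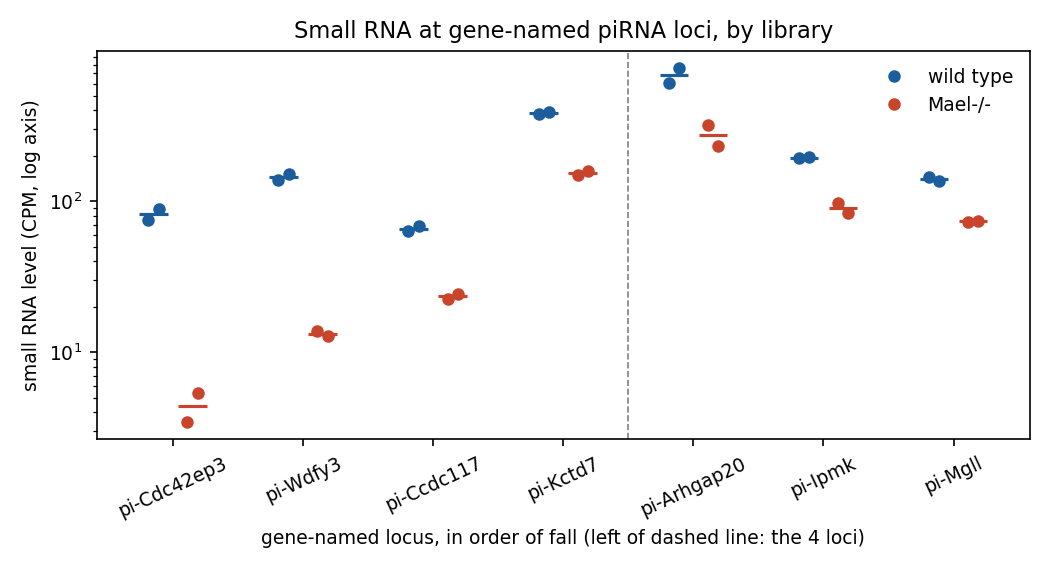
Small RNA level in CPM (log axis) of the 4 loci and of the 3 gene-named loci next in order of fall, 1 point per library, with a line at the mean of each genotype (n = 2). The gap between the genotypes is widest at pi-Cdc42ep3 and pi-Wdfy3, and the gap at pi-Kctd7 is close in size to that at pi-Arhgap20, across the dashed line.

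A fit of all features (edgeR, TMM scaling, which sets the bulk of features to no change) gave deeper falls than CPM, because the 2 scalings differ by -1.22 on the log2 scale in this comparison. On that scale the log2 fold change (Mael-/- minus wild type) was -5.44 ± 0.506 (SE) at pi-Cdc42ep3 and -4.58 ± 0.537 at pi-Wdfy3, against -4.24 and -3.43 with library totals. At pi-Ccdc117 it was -2.67 ± 0.459 and at pi-Kctd7 -2.50 ± 0.510, against -1.48 and -1.31 with library totals. Of the 9906 features, 8 had a deeper fall than pi-Cdc42ep3 and 16 a deeper one than pi-Wdfy3, compared with 104 for pi-Ccdc117 and 142 for pi-Kctd7. Among the 99 band-named loci tested, 0 fell more deeply than pi-Cdc42ep3 or pi-Wdfy3, and the deepest was at -3.40. The counts for pi-Ccdc117 and pi-Kctd7 were 4 and 8 of 99. The fit called 3.49% of all features lower (adjusted p under 0.05), and since the members were chosen on this contrast no call is read for them.

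The order has a step after its first 2 members and none after the last. Just inside the choice, pi-Kctd7 stood at -2.50, and just outside, pi-Arhgap20 stood at -2.41 ± 0.565 (SE). The pi-Arhgap20 libraries held 608 and 756 CPM in wild type and 319 and 231 CPM in Mael-/-. The next were pi-Ipmk, named for inositol polyphosphate multikinase, at -2.25 and pi-Mgll, named for monoglyceride lipase, at -2.11. With TMM scaling the other 110 gene-named loci had a median of 0.02, from -2.41 to 2.20, of which 54 lay below 0 and 56 above. Most band-named loci fell as well on that scale: the 99 tested had a median of -1.72, with 94 below 0 and 5 above. TMM values differ from those with library totals by -1.22, so these medians and the counts on each side of 0 depend on the scaling.

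The 4 loci were of middling to high level before the fall and most were among the scarcest after it. In wild type they ranked 16 (pi-Kctd7), 26 (pi-Wdfy3), 41 (pi-Cdc42ep3) and 47 (pi-Ccdc117) among the 114 gene-named loci by mean CPM. In Mael-/- the same loci ranked 45, 111, 113 and 102. Together they took 1.71% and 1.82% of gene-named small RNA counts in the wild-type libraries and 0.323% and 0.313% in the Mael-/- libraries. Their summed level fell less than this share, from 653 and 694 CPM in wild type to 189 and 200 CPM in Mael-/-. Gene-named loci as a whole made up more of the Mael-/- libraries than of the wild-type ones.

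Per length the picture differed. The entries that stand for the loci are 2062 nt (pi-Cdc42ep3), 14281 nt (pi-Wdfy3), 3383 nt (pi-Ccdc117) and 3538 nt (pi-Kctd7), where the 114 gene-named loci have a median of 7392 nt. Wild-type small RNA density was 108 CPM per kb at pi-Kctd7, rank 9 of 114, and 39.6 CPM per kb at pi-Cdc42ep3, rank 19. It was 19.4 CPM per kb at pi-Ccdc117, rank 34, and 10.1 CPM per kb at pi-Wdfy3, rank 46. In Mael-/- the density was 43.3 CPM per kb at pi-Kctd7, 6.93 at pi-Ccdc117, 2.15 at pi-Cdc42ep3 and 0.931 at pi-Wdfy3. The last was the lowest of all 114 loci, but this rank depends on the entry used. A shorter pi-Wdfy3 entry, of 4690 nt, stood at 2.74 CPM per kb in Mael-/-, above pi-Cdc42ep3.

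Of the loci, 3 have more than 1 entry, so counts can be compared between entries but not placed along the locus. How the entries overlap is not stated in the files, and reads that match several may be counted in each. At pi-Wdfy3 the entry of 4690 nt, 32.8% of the length of the 14281 nt entry, held 102% and 101% of the latter's small RNA counts in wild type and 102% and 90.3% in Mael-/-. Its wild-type density was thus 31.1 CPM per kb. The small RNA of this locus fell to a similar extent in both, since the shorter entry kept 8.80% of its wild-type CPM. In long RNA the shorter entry held 91.4% and 87.9% of the counts of the longer one with anti-MAEL and 72.5% with IgG.

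At pi-Cdc42ep3 the entry of 1112 nt, 53.9% of the length of the longest one, held 96.3% and 95.8% of its small RNA counts in wild type. In Mael-/- it held 89.5% of 76 counts and 69.2% of 26 counts, and 4.35% of its wild-type CPM was left. In long RNA it held 90.7% and 76.2% with anti-MAEL and 75.3% with IgG. The share was thus nearest to that of the lengths in the 50 to 150 nt anti-MAEL library, at 65.3%, and farthest from it in the 15 to 50 nt one, at 99.0%.

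Within pi-Kctd7 a shorter entry lost less small RNA than the entry that stands for the locus, and how much depended on the scaling. This second entry, of 1509 nt, carried 22.0 and 19.2 CPM of small RNA in wild type and 18.2 and 19.0 CPM in Mael-/-, so 90.4% was left where the entry of 3538 nt kept 40.1%. In CPM the genotypes of this entry lay next to each other without overlap, a log2 ratio of -0.15 between the means. With TMM scaling the ratio was -1.35, which left 39.3%, where the longer entry stood at -2.51 and 17.6%. The count of the second entry was 5.85% and 4.95% of that of the longer entry in wild type and 12.2% and 12.1% in Mael-/-. In long RNA it was 46.4% and 47.7% with anti-MAEL and 49.3% with IgG, close to the 42.7% that the lengths give. Small RNA of pi-Kctd7 was therefore denser in the longer entry than in the second one, with 108 against 13.7 CPM per kb in wild type. Long RNA was of similar density in both, at 17.3 and 19.1 CPM per kb with anti-MAEL. With IgG it was close to that, at 15.0 and 17.3 CPM per kb.

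**Figure D2:**
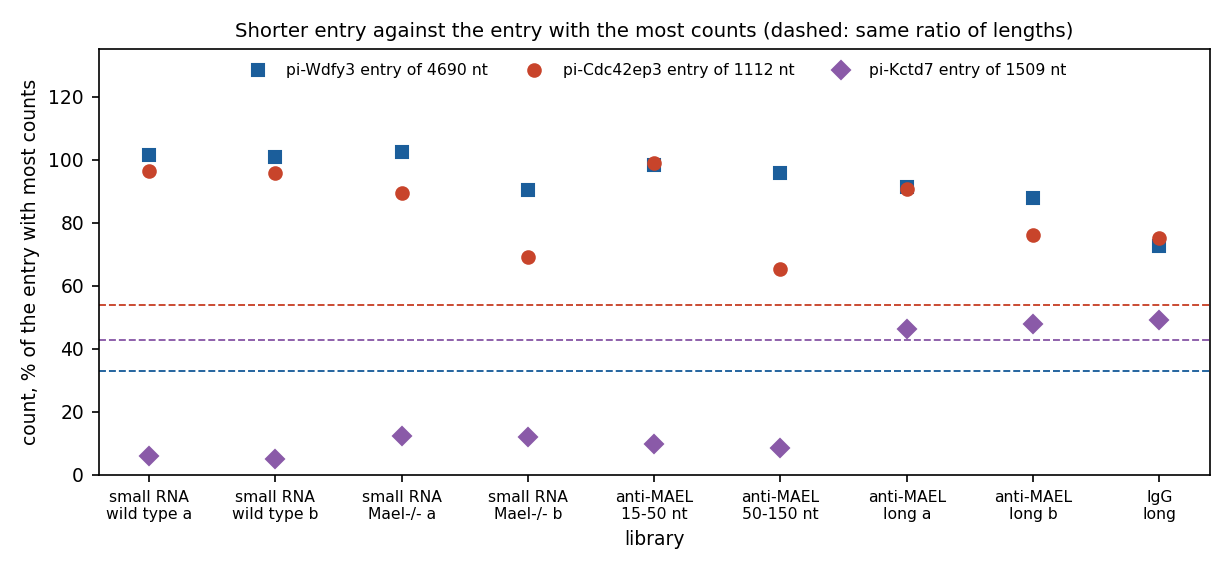
Count of a shorter entry as a percentage of the count of the entry that stands for the locus, in each of the 9 libraries. Dashed lines give the same percentage for the lengths of the entries, 32.8% (pi-Wdfy3), 53.9% (pi-Cdc42ep3) and 42.7% (pi-Kctd7). The pi-Kctd7 points lie far below their line in the 6 libraries of RNA up to 150 nt and near it in the 3 long-RNA libraries.

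The next comparison asked how much long RNA of these loci anti-MAEL carried beyond IgG, a measurement that the choice of loci did not use. All 4 loci lay above IgG in both anti-MAEL libraries, but 0 of 4 passed the test, which called 1.28% of all features higher. Both anti-MAEL libraries also lay above IgG in CPM at 41 of the 114 loci with a gene name, at 89 of the 100 with a band name and at 16.9% of all 16066 features tested. Depth was 5747210 and 10863053 counts in the anti-MAEL libraries and 7785650 in the IgG one.

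At pi-Cdc42ep3 long RNA stood at 215 and 214 CPM with anti-MAEL against 90.9 CPM in the IgG library (exact 95% binomial interval 84.4 to 97.9). The log2 fold change (anti-MAEL minus IgG) was 1.61 ± 0.448 (SE; edgeR's quasi-likelihood test, p after Benjamini-Hochberg adjustment = 0.165, unadjusted p = 0.00511). With no filter on low counts the same test gave 1.60 with an adjusted p = 0.0368 for this locus, in a fit that called 2.49% of 26559 features higher. No other setting passed, and the lowest adjusted p among them was 0.0559, by DESeq2. At pi-Wdfy3 the anti-MAEL libraries held 94.7 and 124 CPM and IgG 63.1 CPM, and the fit gave 1.13 ± 0.327 (SE; edgeR, adjusted p = 0.193, unadjusted p = 0.00654). Both loci were thus above the 1 IgG library in 2 of 2 anti-MAEL libraries, by amounts that did not pass the adjustment over 16066 features.

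At pi-Ccdc117 the level was 113 and 129 CPM after anti-MAEL, against an IgG level of 87.3 CPM, and the fit gave 0.82 ± 0.354 (SE; edgeR, adjusted p = 0.614, unadjusted p = 0.0437). The smallest difference was at pi-Kctd7, with 57.8 and 64.6 CPM against 52.9 CPM, where the fit gave 0.56 ± 0.315 (SE; edgeR, adjusted p = 0.894, unadjusted p = 0.106). There the lower anti-MAEL library lay within the counting interval of IgG, 47.9 to 58.3 CPM. Scaled to library totals, a shift of 0.34 on the log2 scale from TMM, the 4 values were 1.24, 0.79, 0.47 and 0.21. These belong to pi-Cdc42ep3, pi-Wdfy3, pi-Ccdc117 and pi-Kctd7. Of all features 1.28% were called higher, 206 of 16066.

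Other loci reached higher values. Of the 113 gene-named loci tested, 12 had a higher fold change over IgG than pi-Cdc42ep3, 17 than pi-Wdfy3, 26 than pi-Ccdc117 and 39 than pi-Kctd7. With TMM scaling the 109 tested gene-named loci outside the 4 had a median of 0.26, with 73 above 0. Band-named loci had a median of 2.33, and 66 of 99 of them lay above pi-Cdc42ep3, the member with the largest difference. The loci next in order of small RNA fall differed among themselves, with pi-Arhgap20 at 1.68 (edgeR, adjusted p = 0.0820), pi-Ipmk at 3.32 (adjusted p = 0.0134) and pi-Mgll at 0.17 (adjusted p = 0.998). The spread of IgG background was not measured, because there is 1 IgG library.

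**Figure D3:**
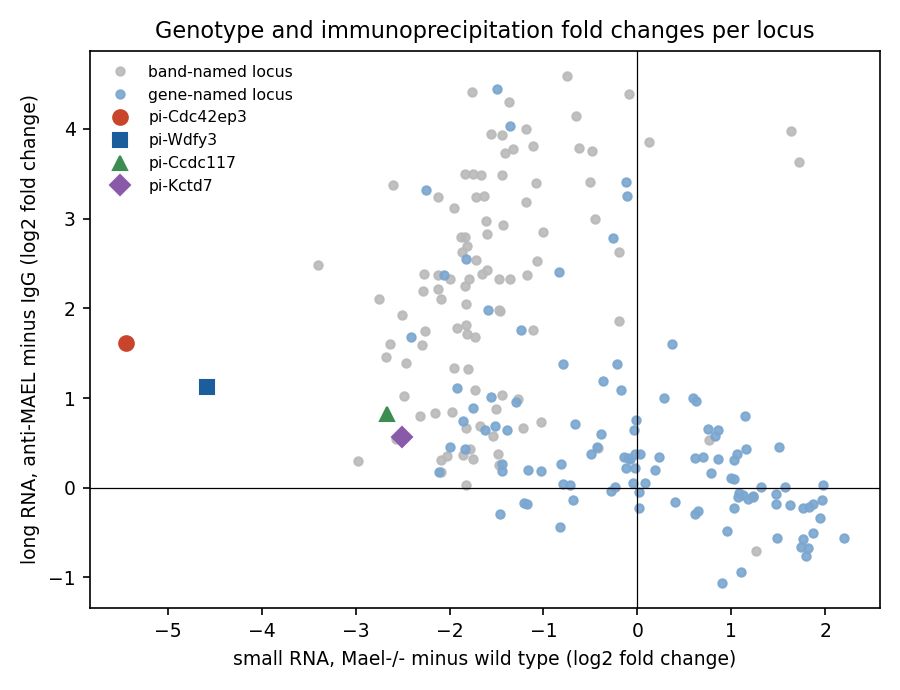
Log2 fold change of long RNA, anti-MAEL minus IgG, against log2 fold change of small RNA, Mael-/- minus wild type, 1 point per locus tested in both. The loci pi-Cdc42ep3 and pi-Wdfy3 lie to the left of every other locus, at -5.44 and -4.58, while their values over IgG, 1.61 and 1.13, fall within the range of the other loci.

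The size-selected anti-MAEL immunoprecipitates split the 4 loci in another way. With 1 library of each size and no IgG of that size, these are values with no test. In the 15 to 50 nt library pi-Ccdc117 stood at 69.7 CPM (exact 95% binomial interval 68.4 to 70.9), close to its 65.6 ± 3.36 CPM (SD, n = 2) in wild-type small RNA. The level at pi-Wdfy3 was 57.0 CPM, 2.53-fold below wild-type small RNA, and at pi-Cdc42ep3 10.8 CPM, 7.55-fold below. The most small RNA in wild type went with the least here: pi-Kctd7 stood at 5.51 CPM, 69.4-fold below its wild-type level.

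As log2 ratios of CPM with a pseudocount of 0.5, these were 0.09 for pi-Ccdc117, -1.33 for pi-Wdfy3, -2.86 for pi-Cdc42ep3 and -5.99 for pi-Kctd7. The 114 gene-named loci had a median of -1.14, from -7.40 to 6.26. Of these, 4 lay below pi-Kctd7, 34 below pi-Cdc42ep3, 52 below pi-Wdfy3 and 71 below pi-Ccdc117. Relative to counts at piRNA loci alone, which made up 27.0% of the 15 to 50 nt library and 83.2% and 82.5% of the wild-type ones, the ratio of pi-Wdfy3 changed sign to 0.28 and the others were 1.70, -1.29 and -4.47 for pi-Ccdc117, pi-Cdc42ep3 and pi-Kctd7. The order of the 4 was the same under both.

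At 50 to 150 nt, a size between long precursors and mature piRNAs, pi-Wdfy3 held 86.6 CPM and pi-Ccdc117 81.5 CPM, ranks 8 and 9 among the 114 gene-named loci. The other 2 were lower, with 20.5 CPM at pi-Cdc42ep3 and 4.50 CPM at pi-Kctd7, ranks 28 and 59. Relative to long anti-MAEL RNA the log2 ratios were -0.34 for pi-Wdfy3 and -0.56 for pi-Ccdc117, with 88 and 85 of 114 gene-named loci lower. They were -3.36 for pi-Cdc42ep3 and -3.63 for pi-Kctd7, with 32 and 24 lower, around a median of -2.43. With a pseudocount of 5 these last 2 were -3.11 and -2.80, in the opposite order. Of the 4, pi-Cdc42ep3 had the most long RNA in the anti-MAEL libraries, ranks 8 and 7 among gene-named loci, and carried 10.5-fold less at 50 to 150 nt, against 1.26-fold less at pi-Wdfy3.

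**Figure D4:**
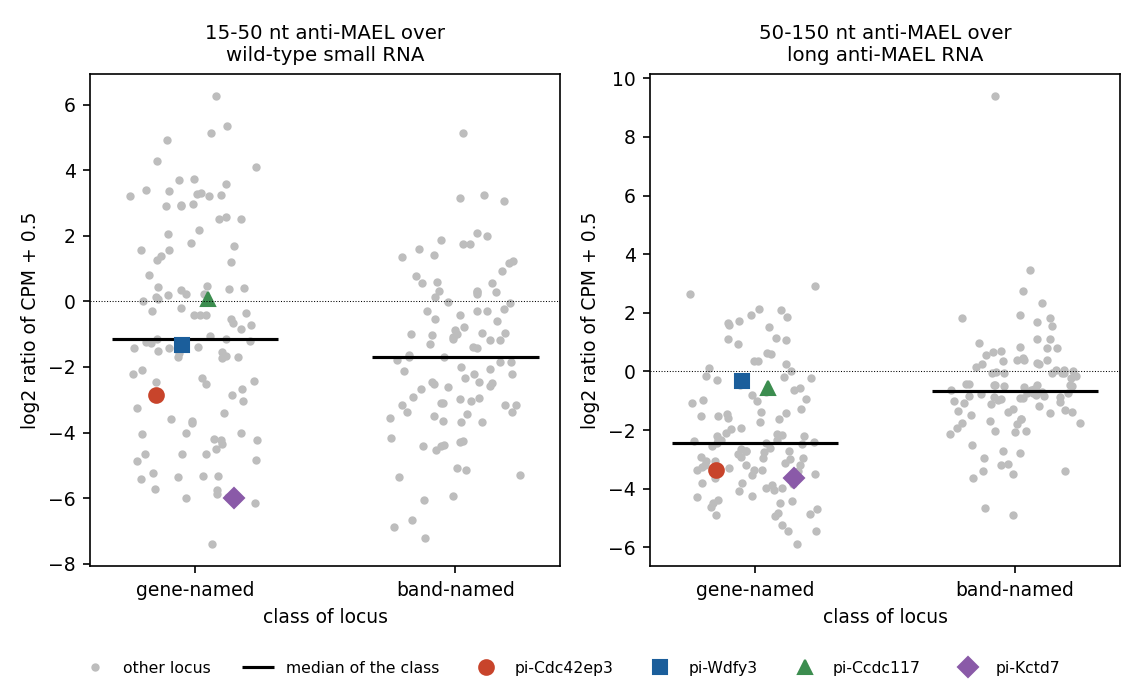
Log2 ratio of CPM (pseudocount 0.5) of the 15 to 50 nt anti-MAEL library over the mean of wild-type small RNA (left) and of the 50 to 150 nt anti-MAEL library over the mean of long anti-MAEL RNA (right), 1 point per locus, with the median of each class as a line. In both panels pi-Wdfy3 and pi-Ccdc117 lie above pi-Cdc42ep3 and pi-Kctd7.

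The levels of pi-Cdc42ep3, pi-Wdfy3 and pi-Ccdc117 were more alike across libraries than any of them was to pi-Kctd7. Of the 9 libraries, 4 are the small RNA libraries that chose the loci, so the fall they share by that choice enters these correlations, which are a description only. The levels did not always move the same way: between long anti-MAEL RNA and wild-type small RNA the mean was higher in the latter at pi-Wdfy3, 144 against 109 CPM, and lower at pi-Cdc42ep3, 81.7 against 214 CPM. Over log2(CPM + 0.5) in these 9 libraries, which share antibodies and size classes and are no independent replicates, Pearson's r was 0.866 between pi-Cdc42ep3 and pi-Ccdc117, 0.861 between pi-Wdfy3 and pi-Ccdc117 and 0.841 between pi-Cdc42ep3 and pi-Wdfy3. For pi-Kctd7 it was 0.169, -0.03 and -0.333 with pi-Cdc42ep3, pi-Wdfy3 and pi-Ccdc117. Of the 213 other loci, the most alike to pi-Wdfy3 and to pi-Ccdc117 were the other members of that trio, and beside pi-Ccdc117 the most alike to pi-Cdc42ep3 was pi-Mrs2, named for a mitochondrial magnesium channel gene (r = 0.853). The loci most alike to pi-Kctd7 were band-named, 15-qE1-3710 (r = 0.991) and 1-qD-2017 (r = 0.983). The small RNA levels of 15-qE1-3710 were 914 and 924 CPM in wild type and 586 and 584 CPM in Mael-/-, with a log2 fold change of 0.03 over IgG in long RNA.

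**Figure D5:**
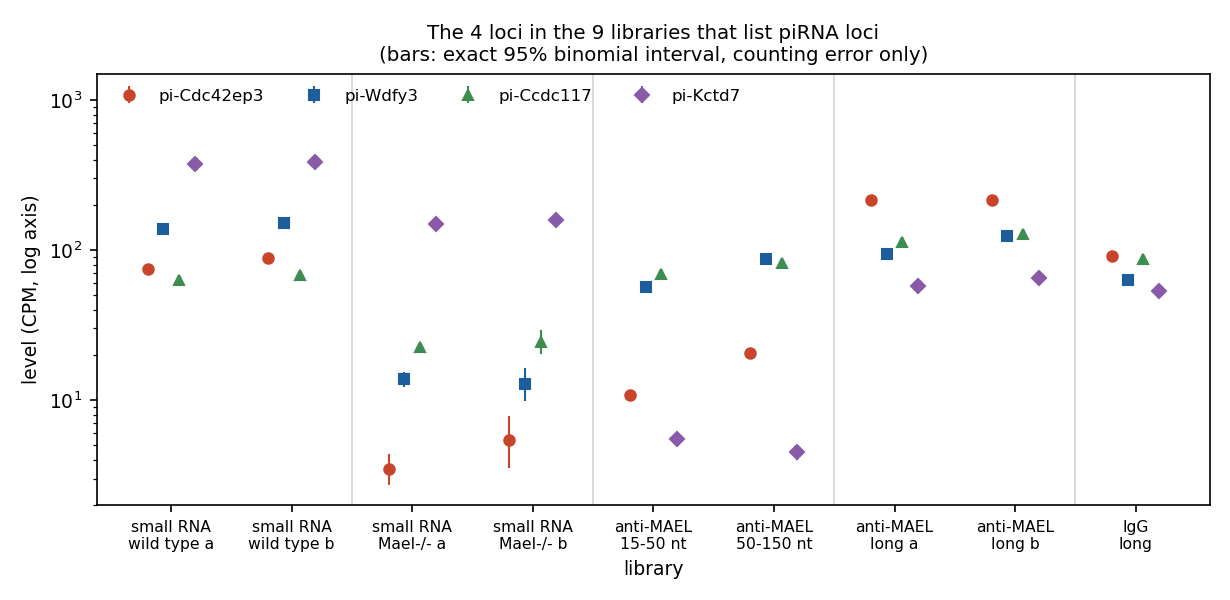
Level of each of the 4 loci in CPM (log axis) in the 9 libraries that list piRNA loci, with exact 95% binomial intervals for counting error. In wild-type small RNA pi-Kctd7 is the highest of the 4 and in both size-selected immunoprecipitates the lowest, while pi-Cdc42ep3 is the highest in long RNA and the lowest in Mael-/- small RNA.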

How the data were processed

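Small RNA of wild-type and Mael-/- testis and anti-MAEL and IgG immunoprecipitates of wild-type testis were analysed. The deposited files hold raw counts per entry, with the size of each entry. Build mm9, TopHat2 2.0.7, Bowtie2 2.0.6 and CASAVA 1.8 are listed, with no role for each, in the submitters' processing notes. The sources used here do not state how reads matching several entries were assigned. Per the labels' protocols, long-RNA kits do not keep strand and small RNA kits do.

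The entry with the most counts over the 9 libraries stood for a locus. Small RNA libraries held 4831638 to 44416966 counts. Differences were tested over all features with edgeR 4.0.16 in R 4.3.3 (quasi-likelihood, TMM, filterByExpr, Benjamini-Hochberg), on 4 small RNA libraries by genotype and on 3 long-RNA immunoprecipitates by antibody. The lone IgG library is assumed to vary like the others. Each SE of an edgeR log2 fold change was taken as its absolute value divided by the square root of the test's F statistic. The scripts were tested on simulated data. DESeq2 1.42.0 was an alternative. Python 3.11.15, scipy 1.17.1 and pandas 2.3.3 did the rest.

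The 4 loci and lists were chosen with earlier results of these data known. Named beside them were the 3 gene-named loci next in order of fall and the 2 loci most alike to each in Pearson's r. The mRNA and footprint tables name transcripts by ID only, and 0 of these IDs could be paired with a symbol, so the host genes' mRNA, the piRNA pathway proteins, the cell type markers and Mael itself were not analysed here.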

Additional observations from a re-analysis of the deposited data

How the results depend on the processing

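All 4 loci kept their direction in small RNA under 11 alternatives each, including with each library left out. Since that contrast chose the loci, this is a description and no support for their fall. In anti-MAEL against IgG, which did not choose them, they kept their direction under 8 each. With one library left out, log2 fold changes in small RNA ran from -5.82 to -5.25 at pi-Cdc42ep3, -5.39 to -4.09 at pi-Wdfy3, -3.33 to -2.25 at pi-Ccdc117 and -3.18 to -2.06 at pi-Kctd7. Against IgG, adjusted p ranged from 0.0368 to 1.00 at pi-Cdc42ep3 (DESeq2, 0.0559; library totals, 1.00) and from 0.145 to 1.00 at pi-Wdfy3. Leaving out an anti-MAEL library left no residual degrees of freedom, so only fold changes were had, from 1.28 to 1.91 at pi-Cdc42ep3 and 0.33 to 0.80 at pi-Kctd7, and the IgG library could not be left out.

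Counts over all features moved more. In small RNA 378 were higher and 346 lower. The number higher was 226 with size factors, 2449 with library totals and 233 with no filter, and 27 to 1218 with one library left out. The number lower was 139 with library totals and 617 with DESeq2, and 51 to 1067 with one library left out, 27 and 51 being without wild-type replicate a, 1067 without Mael-/- replicate a and 1218 without Mael-/- replicate b. A replicate block gave 2318 higher and 1754 lower. Replicates share only a letter (correlation of their deviations 0.506 over features, 2 pairs), so this pairing is a hint from the data, not the design. Against IgG, 206 were higher, with 325 by size factors, 101 by library totals, 661 with no filter and 350 by DESeq2. For lower, 0 were called (1225 features in either direction had an unadjusted p under 0.05), against 1 by size factors, 10 with no filter and 0 by DESeq2. The 15 to 50 nt log2 ratio was -2.45 for pi-Cdc42ep3 with a pseudocount of 5, and -6.09 and -5.20 for pi-Kctd7 with 0.1 and 5. The 50 to 150 nt ratio with 5 was -3.11 for pi-Cdc42ep3 and -2.80 for pi-Kctd7, which swapped their order. With piRNA loci alone the 15 to 50 nt ratios were -1.29, 0.28, 1.70 and -4.47 for pi-Cdc42ep3, pi-Wdfy3, pi-Ccdc117 and pi-Kctd7. The cause of these shifts was not tested. Alternatives for host gene mRNA were not run. The depth limits pi-Cdc42ep3 most, with 76 and 26 counts in Mael-/-.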
